A study of Homo sapiens with 9 samples.

Results

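Growth arrest genes, which cells switch on under stress to slow or stop division, were examined in a breast cancer cell line, MDA-MB-231, which is triple-negative (it lacks the estrogen and progesterone receptors and amplified HER2). The genes were 10 named ones, CCNG1, CCNG2, PLK2, PLK3, BTG1, BTG2, MDM2, GADD45A, GADD45B and TP53INP1, and each was to be read from the row of the array table that the platform's gene table assigns to it, taking the brightest row where there were several. Of the 10 genes, 5 had a named row, CCNG1, CCNG2, PLK2, PLK3 and TP53INP1, with 1 row each. BTG1, BTG2, MDM2, GADD45A and GADD45B had no row named here and were not analysed. These 5 measured genes stand among 14884 genes with a named row. RNA was taken from 3 control samples with no agent at time 0, from 3 samples after 12 h of 500 nM JQ1 and from 3 samples after 24 h of 500 nM JQ1, with 1 Affymetrix Human Gene 2.0 ST array per sample. JQ1 binds the bromodomains of the BET proteins and releases them from chromatin. Samples of all 3 groups were of the same cell line. The controls have no named solvent and no 12 h or 24 h counterpart, so an effect of JQ1 and effects of solvent or of time in culture cannot be told apart. The labels do not say whether the 3 samples of a group were separate cultures, and the spread behind the p-values may therefore be technical.

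Growth arrest genes are transcribed after DNA damage, loss of growth factors or other stress, and their products stop the cell cycle, help repair or lead to apoptosis. The genes named here encode, among others, the cyclins G1 and G2 and the Polo-like kinases 2 and 3. They also encode the BTG proteins, which recruit the CCR4-NOT deadenylase to mRNAs, and the GADD45 proteins, which sense stress. Whether any of these proteins slowed proliferation in these cells was not measured. MDM2 is a ubiquitin ligase and MDM4 is its relative and partner. Several of these genes are known to be switched on by FOXO factors, by growth factor signalling or by the integrated stress response.

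All values are array signals on a log2 scale, 1 unit of which is a 2-fold step. The normalization is not described in the sources used here, and array medians lay between 4.92 and 4.96. Each signal was therefore read as relative to the other genes on its array. Control 3 stood apart from the other controls before any gene was compared. Over all 53617 rows its values differed from those of controls 1 and 2 with an SD of 0.385 to 0.389, while controls 1 and 2 differed from each other with an SD of 0.213 and pairs within the JQ1 groups with SDs of 0.25 to 0.297. Control 3 was nearer to JQ1 12 h replicates 2 and 3 (SDs 0.314 and 0.343) and JQ1 24 h replicate 2 (0.355). Its SDs to JQ1 12 h replicate 1 and JQ1 24 h replicates 1 and 3 were 0.388, 0.398 and 0.404. The reason was not tested. Results are therefore given with and without that array. The choice of the array to leave out rested on its values, and the 2 controls that remain are the closest pair. Over all genes the calls rose from 1181 to 2986 at 12 h and from 1714 to 3111 at 24 h. A lower adjusted p without control 3 is thus not read as firmer support for a gene. Of 6 measured genes that MDA-MB-231 is known to express, VIM, AXL, ANXA1, MSN and KRT18 were brighter than at least 97.6% of the genes and CD44 was brighter than 72.6%. ESR1 and PGR, the estrogen and progesterone receptor genes that the line lacks, were brighter than 30.6% and 15.9% of the genes, and of 7 luminal and epithelial markers the brightest were GATA3 and EPCAM, at 59.4% and 52.3%. The 3 leukocyte markers with a named row, CD14, LYZ and NKG7, were brighter than 19.4%, 12.2% and 43.6%.

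The promoters of the 3 genes that rose in the tests below, and of CCNG2, the relative of CCNG1 that did not pass a test, are shown because the genes share a class and gave different test outcomes. Each sequence is the 250 bases before the transcription start, 5′ to 3′ on the gene's strand, from RefSeq on GRCh38.p14, and capitals mark matches to any of 5 motifs. CCNG1 lies on the plus strand at chr5:163437321-163437570 (the first of its 2 listed starts), CCNG2 on the plus strand at chr4:77156957-77157206, PLK2 on the minus strand at chr5:58460087-58460336 and PLK3 on the plus strand at chr1:44800127-44800376.
CCNG1: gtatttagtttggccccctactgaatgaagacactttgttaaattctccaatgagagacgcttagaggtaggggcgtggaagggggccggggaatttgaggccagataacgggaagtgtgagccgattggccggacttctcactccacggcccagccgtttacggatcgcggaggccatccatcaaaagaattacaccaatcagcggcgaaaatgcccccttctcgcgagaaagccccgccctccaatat
CCNG2: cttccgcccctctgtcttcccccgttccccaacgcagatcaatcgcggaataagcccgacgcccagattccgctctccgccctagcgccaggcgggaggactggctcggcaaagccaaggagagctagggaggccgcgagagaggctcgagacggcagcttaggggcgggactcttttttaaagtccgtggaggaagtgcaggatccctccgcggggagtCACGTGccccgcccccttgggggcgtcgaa
PLK2: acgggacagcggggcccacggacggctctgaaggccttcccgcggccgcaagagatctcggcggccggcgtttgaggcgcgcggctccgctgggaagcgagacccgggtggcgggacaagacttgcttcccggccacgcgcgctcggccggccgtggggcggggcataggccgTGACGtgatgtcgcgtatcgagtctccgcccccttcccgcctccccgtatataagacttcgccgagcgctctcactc
PLK3: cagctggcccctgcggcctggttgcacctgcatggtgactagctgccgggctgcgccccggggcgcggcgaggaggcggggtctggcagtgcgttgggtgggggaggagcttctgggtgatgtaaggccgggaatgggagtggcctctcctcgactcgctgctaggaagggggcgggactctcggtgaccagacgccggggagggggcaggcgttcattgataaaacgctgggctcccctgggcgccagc
The motifs were a TATA box (TATAAA), an E-box (CACGTG), a FOXO site (GTAAACA), a CRE half-site (TGACG) and an AP-1 site (TGANTCA), searched on both strands from 250 bases before to 50 after each start. The PLK2 promoter held a CRE half-site that begins 77 bases before the start, and among 35116 promoters of the same length 24.6% held one. The CCNG2 promoter held an E-box that begins 30 bases before the start, a motif found in 7.26% of promoters. The CCNG1 and PLK3 windows held none of the 5 motifs, of which the TATA box was found in 11.5% of promoters, the FOXO site in 3.42% and the AP-1 site in 7.71%. No base was shared by matches to different motifs in these 4 windows. The printed bases were 54.0% G or C for CCNG1, 65.6% for CCNG2, 71.2% for PLK2 and 70.0% for PLK3, where the median of all promoters was 58.0%. A match describes the letters in the window and was not tested as a binding site.

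After 12 h of JQ1, 2 of the 5 measured genes rose and 0 fell, and after 24 h 3 rose and 0 fell, at an adjusted p under 0.05 over all 14884 genes (limma, with Benjamini-Hochberg adjustment). CCNG1 and PLK2 passed the test at both times and PLK3 at 24 h. Over all genes 3.54% were called up and 4.39% down at 12 h, and 5.17% up and 6.34% down at 24 h. The median difference of the 5 genes was 0.63 log2 at 12 h and 0.58 at 24 h, where the median of all genes was 0.01 at both times. The genes were chosen with earlier results of these data known, so these counts and medians are not independent support. Both comparisons share the 3 controls. The arrays measured RNA of whole cultures, so a change in the share of cells that express a gene and a change in RNA per cell cannot be told apart. Without control 3 the same 2 and 3 genes were called, where 9.57% and 9.61% of all genes were called up, and the median of the 5 genes was 0.27 at 12 h and 0.42 at 24 h.

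**Figure D1:**
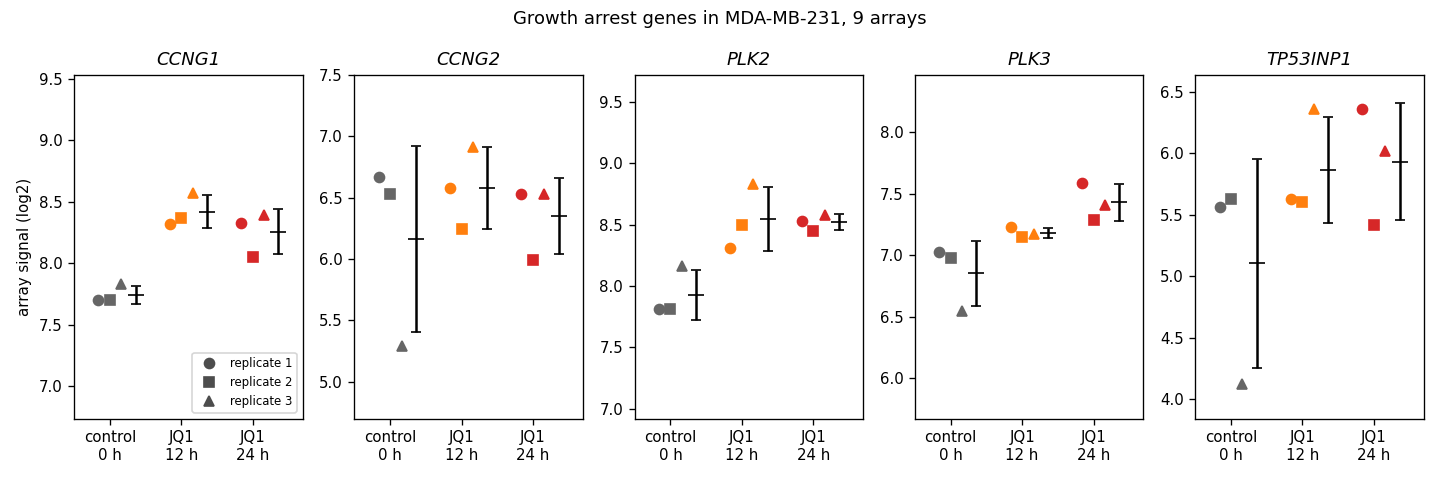
Array signal (log2) of the 5 measured growth arrest genes on each of the 9 arrays, with the mean and SD of each group of 3 as a bar to the right of its points; marker shapes give the replicate, and each panel spans the same number of log2 units. CCNG1 and PLK2 lie above every control at both times, whereas CCNG2 and TP53INP1 overlap their controls and have their lowest value in control 3.

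CCNG1 encodes cyclin G1, an unconventional cyclin that brings the phosphatase PP2A to MDM2. Its signal was 7.70, 7.70 and 7.83 in the controls, 8.32, 8.37 and 8.57 after 12 h and 8.33, 8.05 and 8.39 after 24 h. All 6 JQ1 arrays lay above all 3 controls, and control 3 was close to the other controls. The rise at 12 h was 1.6-fold (log2 difference 0.68, SE 0.11, 95% interval 0.43 to 0.92, adjusted p = 0.0072), and 1.79% of genes had a higher difference. At 24 h it was 1.42-fold (log2 0.51, SE 0.11, interval 0.26 to 0.76, adjusted p = 0.018). The 12 h call held whichever single array was left out (adjusted p between 0.0023 and 0.035). Leaving out control 1 or control 2 ended the 24 h call (adjusted p = 0.064 and 0.062), and so did leaving out the 24 h arrays 1 or 3 (0.071 and 0.075). The differences without control 3 were 0.72 at 12 h and 0.56 at 24 h.

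CCNG2 encodes cyclin G2, the closest relative of cyclin G1, which is abundant in resting cells and is known as a FOXO target. It did not pass the test at either time. Its signal was 6.67, 6.53 and 5.29 in the controls, 6.58, 6.24 and 6.91 after 12 h and 6.53, 5.99 and 6.53 after 24 h. Controls 1 and 2 lay within the range of the JQ1 arrays, and control 3 lay below all the other arrays. The log2 difference was 0.42 at 12 h (SE 0.34, interval −0.36 to 1.19, adjusted p = 0.58) and 0.18 at 24 h (SE 0.34, interval −0.59 to 0.96, adjusted p = 0.82). Without control 3 the sign turned at both times, to −0.02 (interval −0.49 to 0.45) and −0.25 (interval −0.72 to 0.22), and neither difference passed the test. With all arrays the CCNG2 intervals held the differences of CCNG1 (0.68 and 0.51), and without control 3 they lay below those of CCNG1 (0.72 and 0.56). Whether the responses of the 2 cyclins differ was not tested.

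PLK2 encodes Polo-like kinase 2, an early-response kinase of centriole duplication. Its signal was 7.81, 7.81 and 8.16 in the controls, 8.31, 8.50 and 8.83 after 12 h and 8.53, 8.45 and 8.58 after 24 h. The 6 JQ1 arrays again lay above the 3 controls, with control 3 the highest of the controls. The rise was 1.54-fold at 12 h (log2 0.63, SE 0.14, interval 0.30 to 0.95, adjusted p = 0.03) and 1.51-fold at 24 h (log2 0.60, SE 0.14, interval 0.27 to 0.92, adjusted p = 0.028). Without control 3 it was 1.67-fold and 1.64-fold (adjusted p = 0.0039 and 0.0047). These calls were less firm than that of CCNG1 at 12 h, since the 12 h call was lost in 6 of 9 fits that left out 1 array and the 24 h call in 5 of 9. The arrays whose loss ended the 12 h call were controls 1 and 2, JQ1 12 h replicates 2 and 3 and JQ1 24 h replicates 1 and 3 (adjusted p up to 0.11). Those whose loss ended the 24 h call were controls 1 and 2 and the 3 JQ1 24 h arrays (up to 0.1).

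PLK3 encodes Polo-like kinase 3, a kinase that is activated by DNA damage and other stress. Its signal was 7.03, 6.98 and 6.55 in the controls, 7.23, 7.15 and 7.17 after 12 h and 7.59, 7.29 and 7.41 after 24 h. Each JQ1 24 h value lay above each JQ1 12 h value, and each JQ1 12 h value above each control. At 12 h the difference did not pass the test (log2 0.33, SE 0.13, interval 0.03 to 0.63, adjusted p = 0.18). At 24 h the rise was 1.49-fold (log2 0.58, SE 0.13, interval 0.28 to 0.87, adjusted p = 0.023). Control 3 was the lowest array, and without it the rise at 24 h was 1.34-fold (log2 0.42, adjusted p = 0.011) and the 12 h difference 0.18 (adjusted p = 0.27). The 24 h call was lost without JQ1 24 h replicate 1 or 3 (adjusted p = 0.089 and 0.075) and with only the 2 groups compared (0.078).

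TP53INP1 encodes a stress-induced nuclear protein that takes part in cell death and autophagy. It had the widest spread of the 5 genes. Its signal was 5.56, 5.63 and 4.12 in the controls, 5.63, 5.60 and 6.36 after 12 h and 6.36, 5.42 and 6.02 after 24 h. Control 3 lay more than 1 log2 unit below every other array, and JQ1 24 h replicate 2 lay below controls 1 and 2. The log2 difference was 0.76 at 12 h (SE 0.41, interval −0.17 to 1.69, adjusted p = 0.34) and 0.83 at 24 h (SE 0.41, interval −0.10 to 1.76, adjusted p = 0.26). These were the largest differences of the 5 genes and neither passed the test. Without control 3 they were 0.27 (interval −0.36 to 0.90) and 0.34 (interval −0.30 to 0.97).

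**Figure D2:**
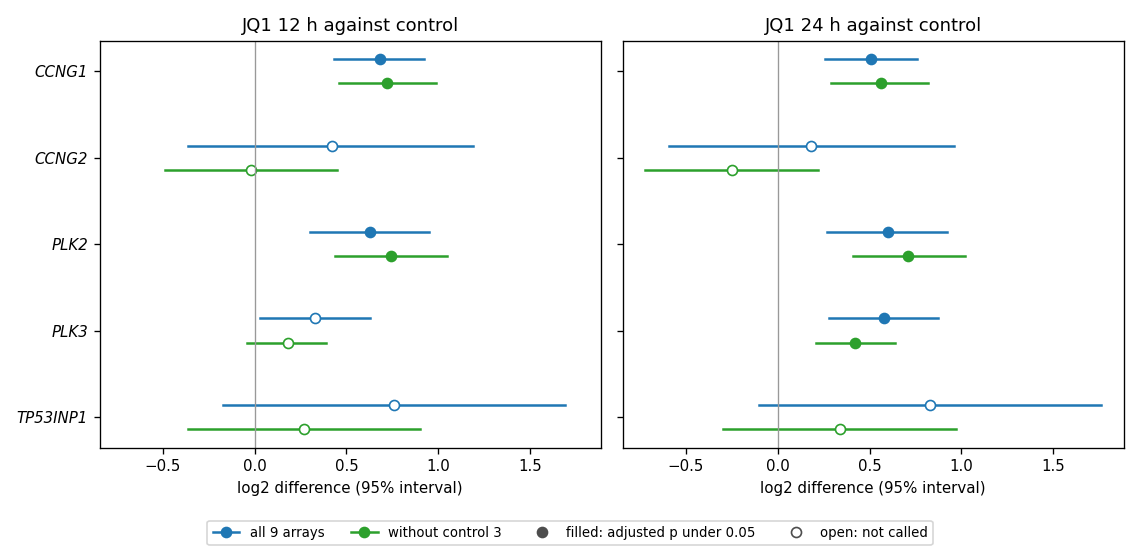
Log2 difference of each growth arrest gene at 12 h (left) and 24 h (right) of JQ1 against control, with its 95% interval from limma, for all 9 arrays (blue) and without control 3 (green); filled points passed an adjusted p of 0.05. The CCNG1 and PLK2 differences lie between 0.51 and 0.74 in both fits, whereas those of CCNG2 cross 0 and those of TP53INP1 shrink without control 3.

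Between the 2 treatment times 0 of the 5 genes passed the limma test, and at an unadjusted p under 0.05 the count was 0 as well. Over all genes 1 passed, 0.00672%, and 6.69% had an unadjusted p under 0.05. CCNG1 was lower at 24 h than at 12 h by a difference that did not pass (log2 −0.17, interval −0.41 to 0.08, adjusted p = 0.86). PLK2 differed by −0.03 (interval −0.35 to 0.29), CCNG2 by −0.23 (interval −1.01 to 0.54) and TP53INP1 by 0.07 (interval −0.86 to 0.99). PLK3 had the highest difference of the 5 genes (log2 0.25, interval −0.05 to 0.54, adjusted p = 0.80) and was the 1 gene of the 5 whose 2 treated groups did not overlap. Groups did not overlap upwards for 5.76% of all genes in this comparison.

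Against control, 3 of the 5 genes had JQ1 arrays that all lay above the controls, at 12 h and again at 24 h, and these were CCNG1, PLK2 and PLK3. This upward separation held for 11.3% of all genes at 12 h and 13.3% at 24 h. Single arrays held the lowest or highest value of their group for several of the genes. How often this held over all genes was not counted. JQ1 24 h replicate 2 had the lowest value of its group for all 5 genes, and JQ1 12 h replicate 3 the highest of its group for 4. Control 3 had the lowest control value for CCNG2, PLK3 and TP53INP1 and the highest for CCNG1 and PLK2. Its distance from the mean of controls 1 and 2 was −1.48 log2 for TP53INP1 and −1.30 for CCNG2, larger in size than for 99.2% and 98.8% of all genes. It was −0.46 for PLK3, 0.35 for PLK2 and 0.13 for CCNG1.

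Other gene groups moved with control 3 as well. The median member of a list of 15 proliferation genes stood 0.87 log2 higher in control 3 than in controls 1 and 2, with all 15 higher. The same distance was −1.89 for the median of 10 integrated stress response genes, with all 10 lower, and −0.96 for that of 14 immediate early genes, with all 14 lower. The proliferation genes also set JQ1 24 h replicate 2 apart, with a median distance from their own mean over the 9 arrays of 0.03, against −0.46 and −0.62 in JQ1 24 h replicates 1 and 3. The part of these differences in the results for the growth arrest genes was not tested.

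The profiles of CCNG1 and PLK2 were the most alike among the 5 genes. Each gene was centred on its own mean over the 9 arrays, and likeness was the root mean square distance between 2 such profiles. That distance was 0.12 log2 for CCNG1 and PLK2, 0.26 for CCNG1 and PLK3 and 0.30 for PLK2 and PLK3, while CCNG1 lay 0.44 from its relative CCNG2. CCNG2 was nearest to TP53INP1, at 0.31. TP53INP1 lay 0.51 from CCNG1, 0.42 from PLK3 and 0.56 from PLK2. With control 3 left out, TP53INP1 lay about as far from each of the others. Its distances were then 0.28 from CCNG2, 0.28 from CCNG1, 0.29 from PLK3 and 0.30 from PLK2. In that setting CCNG1 lay 0.11 from PLK2 and 0.37 from CCNG2. The profiles outside the 5 genes were searched without LOC, LINC, MIR, SNOR, FAM, OR, antisense, -DT and orf symbols. Among the genes searched, the nearest to CCNG1 were GALNT1 (0.075) and HDHD2 (0.081). The nearest to PLK2 were LMBR1 (0.079) and EXOC8 (0.080), and to PLK3 GLG1 (0.055) and EVI5L (0.062). The median gene searched lay 0.33, 0.35 and 0.30 from CCNG1, PLK2 and PLK3.

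The named relatives of these genes did not rise in the test. Of 7 relatives with a named row, 0 rose and 1 fell at 12 h, and 0 rose and 2 fell at 24 h, with medians of 0.10 and −0.08 log2. These counts were the same without control 3. For this list and those that follow, the shares over all genes were 3.54% up and 4.39% down at 12 h. At 24 h they were 5.17% up and 6.34% down. Without control 3, 1424 of all 14884 genes were called up and 1562 down at 12 h, and 1430 up and 1681 down at 24 h. MDM4, the relative of MDM2, averaged 7.90 after 12 h and 7.89 after 24 h, against 8.96, 8.78 and 8.39 in the 3 controls. It fell 1.75-fold at 12 h (log2 −0.81, SE 0.16, adjusted p = 0.018) and 1.76-fold at 24 h (log2 −0.82, SE 0.16, adjusted p = 0.013). Its JQ1 arrays lay below all controls at both times, control 3 was its lowest control, and without control 3 the differences were −0.97 and −0.98. PLK4, the Polo-like kinase that starts centriole duplication, averaged 6.64 after 24 h, against 7.58 in the controls, and fell 1.92-fold (log2 −0.94, SE 0.23, adjusted p = 0.032). PLK1, the mitotic Polo-like kinase, had a log2 difference of 0.11 at 12 h and −0.59 at 24 h (adjusted p = 0.81 and 0.066). Among the controls, PLK1 and PLK4 were highest in control 3, and without it their 24 h differences were −0.38 (adjusted p = 0.064) and −0.65 (adjusted p = 0.013). CCNI, a cyclin related to the G cyclins, had differences of 0.26 and 0.27 (adjusted p = 0.092 and 0.059). TP53INP2, the autophagy relative of TP53INP1, had differences of 0.33 and 0.55 (adjusted p = 0.30 and 0.063). PLK5 and BTG4 had differences of 0.10 and −0.19 at 12 h and of 0.04 and −0.08 at 24 h, none of which passed.

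Among other stress-induced arrest, repair and apoptosis genes the calls went both ways. Of 19 with a named row, 3 rose and 2 fell at 12 h, and 3 rose and 2 fell at 24 h, with medians of 0.08 and 0.04 log2. PMAIP1, which encodes the pro-apoptotic protein NOXA, rose 2.33-fold at 12 h and 2.2-fold at 24 h (log2 1.22 and 1.14, adjusted p = 0.04 and 0.041). Control 3 was the lowest control for PMAIP1 (8.77, against 10.11 and 10.07), and without it the log2 differences were 0.78 and 0.70. SESN1, a stress-induced sestrin, rose by 0.99 and 0.71 (adjusted p = 0.014 and 0.041), and the ceramidase gene ACER2 by 0.70 and 0.57 (adjusted p = 0.013 and 0.022). AEN, an apoptosis-linked nuclease, fell by 0.85 and 1.09 on the log2 scale (adjusted p = 0.0031 and 0.00079), and the autophagy regulator DRAM1 fell by 0.98 and 0.94 (adjusted p = 0.04 and 0.036). Without control 3 the counts were 4 up and 4 down at 12 h and 5 up and 4 down at 24 h. BAX, a pore-forming apoptosis gene, and BBC3, which encodes PUMA, named here after their values were seen, did not pass (12 h differences −0.11 and −0.11, 24 h differences −0.16 and 0.08). GDF15 and SESN2, also named after their values were seen, had the lowest differences of the list. With all arrays GDF15 differed by −2.71 and −2.67 and SESN2 by −1.34 and −1.58, and none passed. Without control 3, which held low values for both, GDF15 differed by −4.12 and −4.08 and SESN2 by −2.43 and −2.67, and all passed.

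CDK inhibitors and FOXO targets were measured in part. CDKN1A, which encodes the CDK inhibitor p21, had no row named here. Of 7 CDK inhibitors only CDKN2A had one, with differences of −0.06 at 12 h and 0.00 at 24 h that did not pass. Of 12 FOXO targets other than the growth arrest genes, 4 rose and 0 fell at 12 h, and 3 rose and 0 fell at 24 h, with medians of −0.07 and 0.04. They were SESN3 (log2 2.65 and 2.41), SESN1, which is also counted among the stress-induced genes above, catalase (CAT, 0.75 and 1.07) and, at 12 h, the pro-apoptotic gene BCL2L11 (0.85). Without control 3 the FOXO list had 4 up and 3 down at 12 h and 4 up and 2 down at 24 h.

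Downstream genes and stress programmes gave mixed counts. Of 8 partners of the GADD45 proteins and stress kinases, 1 rose and 0 fell at 12 h, and 1 rose and 2 fell at 24 h, with medians of 0.15 and 0.20 log2. The rise was that of MAP2K4, a kinase upstream of JNK and p38 (log2 0.56 and 0.60, adjusted p = 0.0082 and 0.0043), and the falls were those of CDK1 (−0.83) and CCNB1 (−0.69), the mitotic kinase and its cyclin. Without control 3 that list had 3 up and 0 down at 12 h and 2 up and 2 down at 24 h. Of 2 measured CCR4-NOT subunits, through which BTG proteins act, neither passed, with 12 h and 24 h differences of −0.39 and −0.50 for CNOT9 and −0.00 and −0.01 for CNOT11. Of 15 proliferation genes 0 rose and 0 fell at 12 h (median −0.02), and 0 rose and 4 fell at 24 h (median −0.57), CDK1, CCNB1, CCNA2 (−0.88) and AURKA (−0.89). The proliferation list without control 3 had 6 up and 0 down at 12 h and 3 up and 4 down at 24 h. Of 14 immediate early genes 2 rose and 1 fell at each time, JUND (1.05 and 1.32), IER5 (0.60 and 0.38) and MYC (−0.96 and −0.76). Their medians were −0.01 and 0.08, and without control 3 the counts were 2 up and 5 down at 12 h and 2 up and 4 down at 24 h. Of 10 integrated stress response genes 0 rose and 1 fell at 12 h (PSAT1, −1.23) and 0 rose and 3 fell at 24 h (TRIB3, −1.97; XBP1, −1.58; PSAT1, −1.42). Their medians were −1.002 and −1.046, and without control 3, which held low values for these genes, 9 fell at each time. In those fits 1562 and 1681 of all 14884 genes fell.

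**Figure D3:**
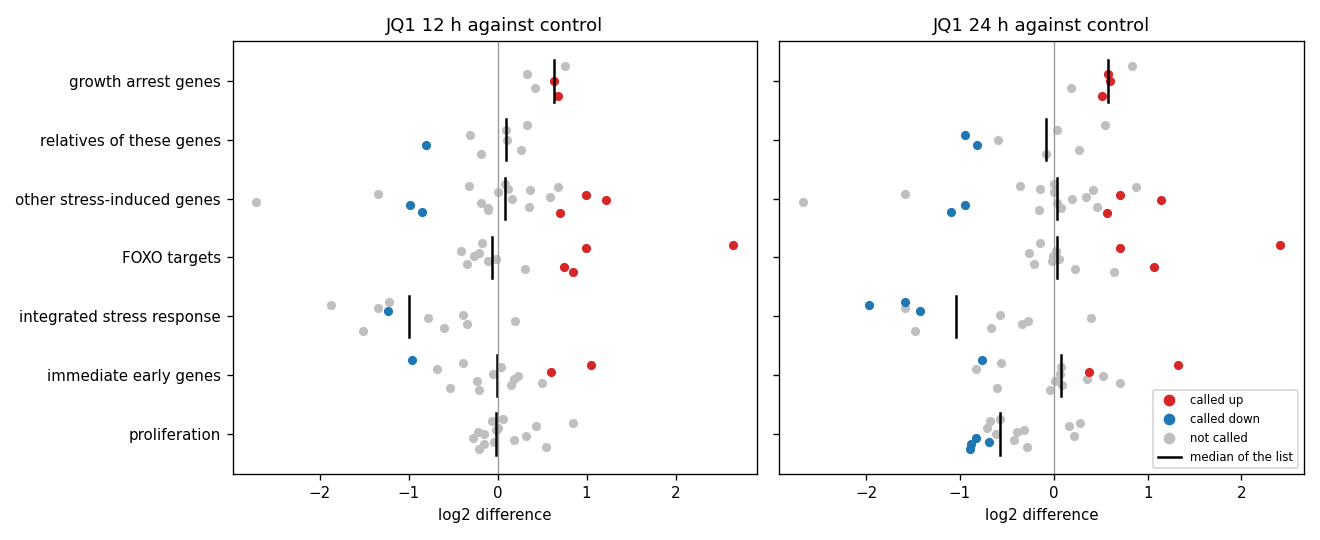
Log2 difference of each measured gene of 7 lists at 12 h (left) and 24 h (right) of JQ1 against control, 1 point per gene, spread vertically for legibility; red points were called up, blue points called down and grey points not called at an adjusted p of 0.05, and a black bar marks the median of each list. The 5 growth arrest genes all lie right of 0 with medians of 0.63 and 0.58, but CCNG2 lies left of 0 when control 3 is left out, and the other stress-induced genes have points called on both sides of 0.

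**Figure D4:**
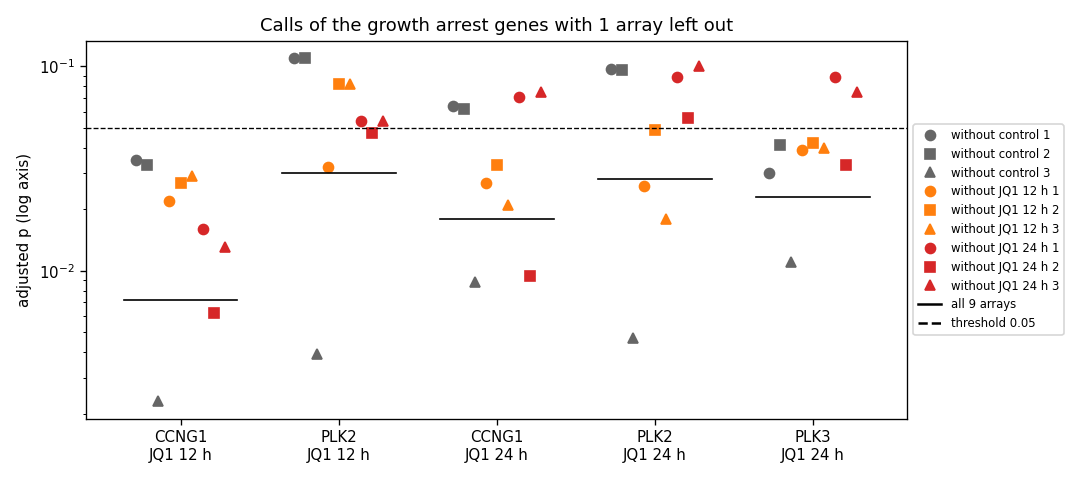
Adjusted p (log axis) of the 5 calls among the growth arrest genes when 1 array is left out (points, coloured by group and shaped by replicate) and with all 9 arrays (black bars); the dashed line is the threshold of 0.05. Of the 5 calls, that of CCNG1 at 12 h stays under the line in all 9 fits, and each call has its lowest adjusted p without control 3.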

How the data were processed

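RNA was measured on Affymetrix Human Gene 2.0 ST arrays, 1 for each of 9 samples. The authors deposited 1 table of 53617 rows and 9 columns of log2 signal, per the values themselves, which ran from 2.01 to 13.88. Transcriptome Analysis Console was used, per the submitters' processing notes; its version, the background correction, the normalization and the build are not given in the sources used here. The platform's gene table named 16098 rows and left 37519 unnamed, and all 14884 genes matched the RefSeq gene table (GRCh38.p14) by gene ID. The brightest row stood for a gene.

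Group means were estimated from the 9 arrays in 1 linear model with limma 3.58.1 in R 4.3.3, with empirical Bayes moderation without trend and no filter on dim genes, and p-values were adjusted over 14884 genes by Benjamini-Hochberg within each comparison. The fit was tested on simulated data. Groups came from the sample titles. The number of arrays limits the precision. The members and lists were chosen with earlier results of these data known, and no list was given a test of its own. Genes were named by rule: the members, their relatives, at most 4 called genes per list and comparison, and the 2 nearest profiles of each called member. The search for nearest profiles left out the symbol classes given above. Alternatives were each array left out, the replicate number as a block, the 2 groups alone, an intensity trend, array weights, quantile normalization, a filter on dim genes, the mean of a gene's rows, and all rows tested. Protein sequences were not analysed here, and 1 list of regulators and 1 motif are not reported here.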

Additional observations from a re-analysis of the deposited data

How the results depend on the processing

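Directions of the 3 genes called did not turn in any of the 17 alternatives at either time. Their JQ1 arrays all lay above the controls at both times, so leaving out or weighting arrays could not turn them. Only quantile normalization changed the array values of these genes. The unchanged directions are therefore not read as support. With all arrays 2 of the growth arrest genes were called at 12 h and 3 at 24 h; leaving out 1 array gave 1 to 2 at 12 h and 0 to 3 at 24 h, with 0 when JQ1 24 h replicate 1 or 3 was left out. With only the 2 groups compared the count was 1 at 12 h, where PLK2 was lost (adjusted p = 0.096), and 2 at 24 h, where PLK3 was lost (0.078). With all rows tested it was 1 at 12 h, where PLK2 was lost (0.069), and 1 at 24 h, where PLK2 and PLK3 were lost (0.062 and 0.051), while 1378 and 2214 rows were called in all. Between the 2 times the count was 0 in each of these fits. Over all genes 1181, 1714 and 1 were called at 12 h, at 24 h and between the times. Leaving out 1 array gave 543 to 2986, 786 to 3111 and 1 to 22. With only the 2 groups compared 577 and 994 were called at 12 h and 24 h. With array weights the 3 counts were 3498, 3764 and 14, and with all rows tested 3 rows were called between the times. The cause of these changes was not tested.

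The titles do not say whether the replicate numbers pair the samples. Same-numbered arrays had correlations of their deviations between −0.32 and 0.22, and not every array correlated best with its own number. With 3 arrays per group these correlations cannot decide whether the samples were paired. With the replicate block 2 growth arrest genes were called at 12 h and 3 at 24 h, and 967 and 1478 genes in all. CCNG2, which was not called, had the opposite sign without control 3 and with array weights. Lists without control 3 were counted after the data were seen.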
